A study of Arabidopsis thaliana with 58 samples.

Results

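The H3K9me2 peaks of the chromosome 2 pericentromere of Arabidopsis thaliana were described from 1 ChIP-seq library. A deposited peak was taken when its summit lay on chromosome 2 at or after base 3500000 and before base 6700000, counted from 0, which gave 487 of the 4144 peaks of the list. The library came from 3 grams of unopened flower buds of wild-type Columbia-0 plants, pooled, with a developmental stage given as 4 weeks. The series compares enzymatic methyl sequencing with bisulfite sequencing in 58 samples, and this library was the one H3K9me2 sample in it. The companion library, from an antibody to histone H3 itself, was not analysed here. No replicate was used, so no p-value was computed, and the intervals below cover counting error only. Read counts are not part of the peak list, which leaves the sequencing depth unknown. Buds hold many cell types, which the library does not separate.

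Dimethylation of lysine 9 of histone H3 marks silent chromatin in plants. In Arabidopsis the methyltransferase KRYPTONITE (KYP) and its relatives write the mark at DNA that carries non-CG methylation, and CHROMOMETHYLASE3 (CMT3) binds the mark and methylates cytosines in the CHG context, where H is A, C or T, so that both marks maintain each other. Pericentromeres flank the centromere and hold most of the transposons and their decayed remnants, which the annotation used here lists as pseudogenes and not as transposons.

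The sequences under the 2 peaks of highest fold enrichment are shown first, beside a sequence far from any peak, because CHG sites are where the DNA methylation tied to this mark can sit. The letters are those of TAIR10.1, plus strand, and capitals mark CAG, CTG, CCG and CGG, which are the CHG sites of both strands. CCG and CGG also hold a CG site, and overlapping matches were all counted.
Peak of highest fold, around its summit, chr2:4705575-4705774: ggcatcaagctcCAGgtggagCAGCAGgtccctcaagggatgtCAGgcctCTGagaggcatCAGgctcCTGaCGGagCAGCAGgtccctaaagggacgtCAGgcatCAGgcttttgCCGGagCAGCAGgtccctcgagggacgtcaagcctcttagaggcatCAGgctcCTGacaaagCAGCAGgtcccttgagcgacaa
Peak of next highest fold, around its summit, chr2:4563521-4563720: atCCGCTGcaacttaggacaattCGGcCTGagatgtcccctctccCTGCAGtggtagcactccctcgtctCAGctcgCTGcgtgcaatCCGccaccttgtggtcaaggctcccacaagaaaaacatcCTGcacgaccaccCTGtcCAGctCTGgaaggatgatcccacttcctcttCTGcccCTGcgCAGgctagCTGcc
Upstream of AGP9, in a long gap, chr2:6399205-6399404: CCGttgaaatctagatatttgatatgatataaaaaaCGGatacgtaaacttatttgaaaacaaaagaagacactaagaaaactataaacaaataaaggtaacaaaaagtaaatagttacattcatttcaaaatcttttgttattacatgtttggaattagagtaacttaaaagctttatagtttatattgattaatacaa
The first window held 20 such trinucleotides in 200 bases and the next 17, against 2 upstream of AGP9, which encodes an arabinogalactan protein of the cell surface. These 3 windows are extreme in GC content, with 60.5% and 59% at the summits and 22.5% upstream of AGP9. Over the pericentromere GC content was 41.1% inside peaks and 32.2% outside, and the counts of sites were not adjusted for it. Windows of 200 bases tiled over the pericentromere had a median of 7 (quartiles 5 to 10, n = 7482) where they lay wholly inside a peak and 4 (quartiles 2 to 6, n = 7588) where they lay wholly outside. At least 1 site was found in 96.5% of all 15978 windows, and 10 or more in 25.4% of those inside peaks and 8.04% of those outside. In the window of highest fold, the 13-mer AGCAGCAGGTCCC occurred 4 times, and counted on both strands it occurred 4 times on the whole of chromosome 2 and 5 times on chromosomes 1 to 5 together. Both summits lay in pseudogenes, AT2G11730 and AT2G11430.

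Edges of called peaks could fall very close to genes, and the bases upstream of a pair of spared genes are shown for that reason. How closely such an edge follows the border of the mark itself was not tested, and the thresholds of the caller are not given. Both are written in the direction of the gene, the last base being the one before its annotated start, and capitals mark the bases inside a peak.
Upstream of ABH1, plus strand, chr2:5636684-5636883: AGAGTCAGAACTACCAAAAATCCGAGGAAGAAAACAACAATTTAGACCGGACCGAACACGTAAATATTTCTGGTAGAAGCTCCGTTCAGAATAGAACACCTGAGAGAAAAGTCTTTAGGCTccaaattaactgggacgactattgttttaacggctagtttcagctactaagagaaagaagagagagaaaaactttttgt
Upstream of DRP3B, minus strand, chr2:5960264-5960463: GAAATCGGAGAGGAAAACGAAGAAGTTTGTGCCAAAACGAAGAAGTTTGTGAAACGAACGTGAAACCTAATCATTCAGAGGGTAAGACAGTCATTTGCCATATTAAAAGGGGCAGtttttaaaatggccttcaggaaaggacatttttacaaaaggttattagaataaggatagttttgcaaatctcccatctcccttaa
ABH1 encodes the large subunit of the nuclear cap-binding complex, and its start lay 80 bp past the end of a peak of 21062 bp with a fold of 4.43. DRP3B, a dynamin-related protein of mitochondrial and peroxisomal division, started 86 bp from a peak of 3120 bp with a fold of 2.70. No base of either gene was inside a peak.

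The peaks covered 1593837 of the 3200000 bp of the pericentromere, or 49.8%. Of these, 9936 bp came from 1 further peak whose summit lay before the left border. That peak, chr2:3222898-3509936 with a fold of 5.97, spans the large insertion of mitochondrial DNA in chromosome 2, which aligned to the mitochondrial genome over chr2:3250465-3509765. In its part inside the border, 4.61% of the 50-base sequences occurred once in the genome, organelles included. Whether its reads came from the insertion or from mitochondria was not tested. The first member inside the border was 442 bp wide with a fold of 2.18, and the last before the right border was 5975 bp wide with a fold of 3.82. The first peak past the right border had its summit at base 6702093, with a width of 5787 bp and a fold of 4.78.

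**Figure D1:**
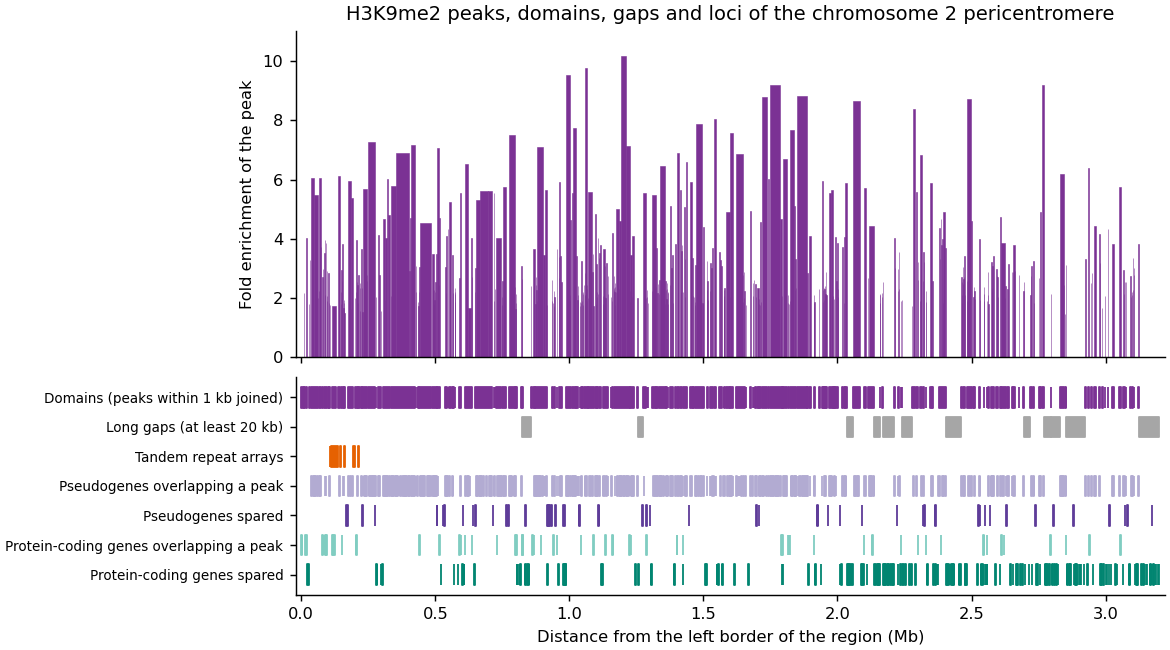
Upper panel: each of the 487 H3K9me2 peaks is drawn at its position (distance from the left border in Mb) with its deposited fold enrichment as height, from 1.48 to 10.2. Lower panel: domains, long gaps, tandem repeat arrays, pseudogenes and protein-coding genes on the same axis, each drawn at least 1.5 kb wide. Of the 12 long gaps, 10 lie past 2 Mb, and so do 134 of the 185 spared protein-coding genes.

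Peaks differed in width by a large factor. The median width was 948 bp (quartiles 430 to 3687 bp), and the range ran from 243 to 48437 bp. The 146 peaks under 500 bp were 30.0% of the peaks and held 3.16% of their summed width, with a median fold of 2.02. At the other end, 41 peaks (8.42%) were 10 kb or wider, and these held 48.2% of the width, with a median fold of 6.51. The fold is the deposited enrichment over a background that the sources used here do not name, and over all members its median was 2.53 (quartiles 2.06 to 3.71). The deposited −log10 q-values ran from 1.33 to 173. Wide peaks had higher folds, with a Spearman correlation of 0.84 over the 487 peaks. Both measures come from the same signal of the same library, and a wider peak offers more places for a high summit.

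**Figure D2:**
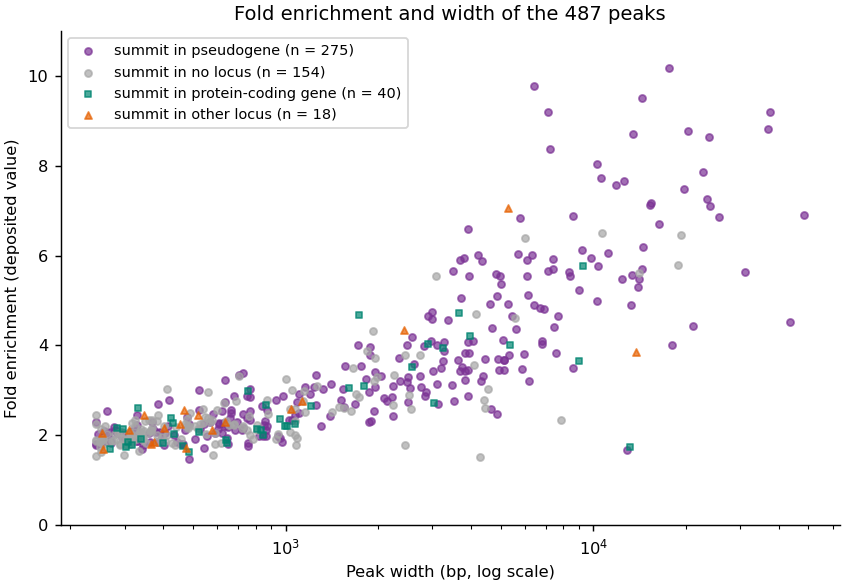
Each point is 1 of the 487 peaks, with its width in bp on a log axis and its deposited fold enrichment on a linear axis. Colours give 1 kind of locus per summit, protein-coding where a summit lies in several kinds. Among the 41 peaks 10 kb or wider, 35 had their summit counted in a pseudogene (275 of all peaks had), and 2 had a fold under 2.

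Of the 487 summits, 275 (56.5%) were counted in pseudogenes, 154 (31.6%) in no annotated locus and 40 (8.21%) in protein-coding genes. Each summit was counted in 1 class, though some, as at base 4298129, lay in both a protein-coding gene and a pseudogene. The median fold was 3.08 for summits in pseudogenes (quartiles 2.25 to 4.66), 2.23 for those in protein-coding genes (quartiles 1.90 to 3.06) and 2.21 for those outside loci (quartiles 1.92 to 2.59). The quartile ranges of these classes overlap.

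The 5 peaks of highest fold all lay over pseudogenes. The first, chr2:4691748-4709306 with a fold of 10.2, covered the pseudogenes AT2G11700, AT2G11720, AT2G11730 and AT2G11740 whole and 99.2% of AT2G11690. The next, chr2:4558837-4565239 with a fold of 9.77, covered the pseudogene AT2G11430. The third, chr2:4486509-4500935 with a fold of 9.52, overlapped 5 loci from AT2G11280 to AT2G11320, the last of which ran past its end. Equal folds of 9.20 were given for chr2:5248195-5285800, which ran over 13 loci, and for chr2:6263478-6270614, over AT2G14650. These peaks were not alike in how repeated their sequence was. The 300 bp at the summit had no other match of at least 240 bp at 80% identity for the first peak, 30 for the next, 12 for the third, and 2 and 29 for the last pair. All of those matches lay in H3K9me2 peaks themselves. How reads matching several places were placed is not given in the sources used here.

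Peaks separated by up to 1 kb were joined into domains, since a caller can split 1 enriched stretch into several peaks. This gave 195 domains with a median width of 4665 bp, of which 83 were single peaks and the fullest held 14. The 49 domains of at least 10 kb held 68.0% of all domain bases, and the 22 of at least 20 kb held 45.0%. Without joining there were 488 separate stretches, counting the part of the insertion peak, and with joining over 5 kb there were 87.

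The 5 widest domains carried almost only pseudogenes. The widest, chr2:3833246-3925773, was 92528 bp long with 98.3% of its bases inside 7 peaks, and it overlapped 22 pseudogenes and 0 protein-coding genes. Next came chr2:4149267-4211172 with 61906 bp, 11 pseudogenes and 0 protein-coding genes. The third, chr2:4665053-4725445, was 60393 bp long and included the peak of highest fold. It held 13 pseudogenes, 1 protein-coding gene and MIR855, a microRNA gene that was covered whole. The fourth, chr2:3938405-3985226, and the fifth, chr2:5248195-5291419, had 46822 and 43225 bp, with 9 and 14 pseudogenes and 1 protein-coding gene each. Uniqueness of sequence varied among these domains, since 88.5% of the 50-mers of the third domain occurred once in the genome against 52.8% in the fifth.

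Loci were assigned to the pericentromere by their midpoint and called overlapping where a peak shared 1 bp or more with them. Of 248 protein-coding genes, 63 overlapped a peak (25.4%, Wilson 95% interval 20.4 to 31.2%), against 2.53% of all 27444 protein-coding genes of chromosomes 1 to 5. Of 443 pseudogenes, 386 did (87.1%, interval 83.7 to 89.9%), against 83.1% of the 3917 pseudogenes of all chromosomes. The share for pseudogenes was thus near the genome share, which lay just below the interval. The genome shares include the pericentromeres, which on chromosomes 1, 3, 4 and 5 held 435, 708, 437 and 604 pseudogenes. Shares outside the pericentromeres were not computed. Transcribed pseudogenes, a class of their own in the annotation, were between the others with 22 of 56 (39.3%, interval 27.6 to 52.4%), against 17.8% in the genome. Long noncoding RNA genes had 16 of 61 (26.2%, interval 16.8 to 38.4%), against 2.7% in the genome. Of 6 microRNA genes 3 overlapped (interval 18.8 to 81.2%), against 6.13% of the 326 in the genome. By length the contrast was sharper, as 84.8% of the pseudogene bases and 16.0% of the protein-coding bases were inside peaks. Loci in 1 domain share that domain, so they are not independent of each other.

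**Figure D3:**
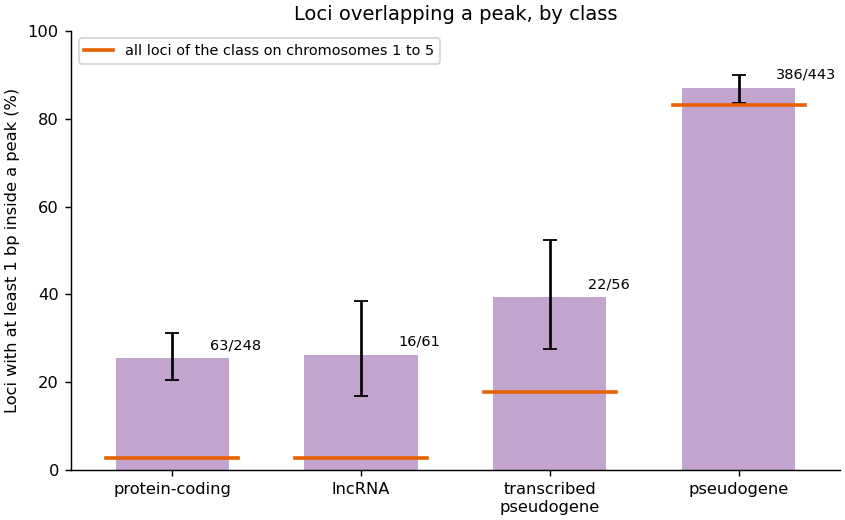
Bars give the share (%) of the loci of each class in the chromosome 2 pericentromere with at least 1 bp inside a peak, with Wilson 95% intervals and the counts; orange lines give the share over all loci of the class on chromosomes 1 to 5. The bar for pseudogenes, 87.1%, sits near its line at 83.1%, and the bar for protein-coding genes, 25.4%, stands above its line at 2.53%.

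Pseudogenes that overlapped were usually buried in the mark. Of the 386, 268 were covered from end to end. Pseudogenes of 4 kb or more overlapped in 87 of 89 cases, and those from 500 to 1000 bp in 69 of 91. The pseudogenes with the most covered bases were AT2G13390 (8789 bp, fold 8.65), AT2G11450 (7604 bp, fold 5.57) and AT2G10280 (7231 bp, fold 4.52), all covered whole. Their 50-mers occurred once in the genome in 11.6%, 86.0% and 58.8% of positions, so these 3 loci ranged from mostly repeated to mostly unique sequence. Over the pericentromere, 75.8% of the repeated 50-mers and 45.7% of the unique ones were inside peaks. The 57 spared pseudogenes were shorter, with a median of 1060 bp against 2410 bp. The longest of them, AT2G11240 with 6063 bp, lay at least 2761 bp from a peak on either side, followed by AT2G09800 with 5142 bp and AT2G11165 with 3988 bp. Of the 50-mers of these 3 loci, 99.4 to 99.9% were unique.

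Protein-coding genes that overlapped were mostly covered far into the gene. Of the 63, 49 had at least 50% of their length inside peaks and 27 were covered whole. In 15 of the others a peak took in the start but not the end of the gene, in 11 the end but not the start, in 1 both ends with a part between spared, and in 9 a stretch inside. Counting exons alone left the number at 63. With members alone it was 60, since 3 genes at the left border, AT2G07665, AT2G07835 and AT2G07741, were under the insertion peak.

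Genes to which the annotation gives a symbol were seldom reached. Of 57 such genes, 2 overlapped a peak (3.51%, interval 0.97 to 11.9%), and 0 were covered whole. Of the 191 genes without a symbol, 61 overlapped (31.9%, interval 25.7 to 38.9%) and 27 were covered whole. The genes with a symbol were also longer, with a median of 2801 bp against 1008 bp. Many of them lay in the right part of the pericentromere, and position was not adjusted for. Of all protein-coding genes, 21 of 33 overlapped in the first 800 kb and 9 of 103 in the last. ABCC13, an ABC transporter of the multidrug resistance-associated subfamily, had 5257 of 7991 bp (65.8%) inside peaks, including its end, with a fold of 4.01. It was the sole gene with a symbol that was covered over at least 50% of its length. UNE4, annotated as a bZIP transcription factor, had its first 313 of 1616 bp (19.4%) inside a peak of 316 bp with a fold of 1.79.

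Genes whose product was described as uncharacterized or of unknown function overlapped in 40 of 84 cases (47.6%, interval 37.3 to 58.2%), and the rest in 23 of 164 (14.0%, interval 9.53 to 20.2%). Descriptions naming a transposon or retroelement were found in 5 protein-coding genes, and all 5 overlapped, against 63 of all 248 protein-coding genes (25.4%). The Ta11-like non-LTR retrotransposon proteins AT2G13500 and AT2G13510 shared a peak with a fold of 4.43 and were covered whole, and AT2G13450 was covered over 86.6% with a fold of 5.71. AT2G14000, a retrotransposon ORF-1 protein, was covered whole with a fold of 4.68. AT2G10550, described as an inactive uracil-DNA glycosylase paralog broken by transposons, was covered over 92.7%. Among pseudogenes with such descriptions 3 of 5 overlapped, against 386 of all 443 pseudogenes (87.1%). SADHU1-1, a Sadhu noncoding retrotransposon, was spared at a distance of 378 bp upstream, and so was AT2G13431. All 7 genes described as kinases were spared, near the 141 of 164 (86.0%) for genes with a described product. Of 5 F-box genes 2 overlapped, over 19.6% and 27.8% of their length, which are too few to set against the 25.4% of all protein-coding genes.

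The spared genes covered a wide range of functions, and 28 of the 185 had a peak within 1 kb of an end. The gene lists that follow consist almost wholly of genes with a symbol, of which 55 of 57 (96.5%) were spared, so their counts are near that share and say nothing particular to a list. The median distance to the nearest peak upstream was 6524 bp and downstream 8186 bp. All 7 listed defence genes were spared, with the nearest peak 506 to 19597 bp away. PR1, the marker gene of salicylic acid defence, was 9940 bp from the next peak upstream and 7997 bp downstream. PRB1, its basic relative, had 2485 and 1639 bp. ALD1, which makes the precursor of pipecolic acid, had 27331 and 7229 bp. The co-receptor kinase SERK4 started 506 bp from a narrow peak of 456 bp with a fold of 1.92, and its neighbour SERK5 lay 12017 bp downstream of a peak. LURP1, needed for defence against an oomycete, and AT2G14080, a TIR-NBS-LRR type resistance protein, were 3799 and 19597 bp from the nearest peak.

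All 5 listed genes of metabolism were spared, 1722 to 13905 bp from a peak. As for the lists below, this is near the 55 of 57 (96.5%) for all genes with a symbol. They were the aminotransferase AGT of photorespiration, the mitochondrial malic enzyme NAD-ME1, the galactolipid synthase MGDC, the sulfate-activating kinase APK and the auxin-conjugating GH3.1. The 5 genes listed for nuclear roles or division, DRP3B being for that of mitochondria and peroxisomes, were spared too, 80 to 3578 bp from a peak. Beside ABH1 and DRP3B these were MCM9, a helicase of the MCM family, the chromatin remodeler CHR5 and the MADS-box gene AGL44. CHR5 was the longest spared gene with 12507 bp, and lay between peaks 2919 bp upstream and 9747 bp downstream. Of the listed cell wall and surface genes 5 were in the pericentromere and all 5 were spared, namely CALS5, the callose synthase of the pollen wall, the fucosyltransferases FUT5 and FUT10, the xyloglucan enzyme XTH10 and KCS8, which elongates fatty acids. CALS5, 12062 bp long, lay 25786 bp from the nearest peak upstream and 3469 bp from that downstream. The kinase CRCK3 and the Golgi sugar nucleotide transporter GONST1 were spared as well, 722 and 18721 bp from the nearest peak. FUT4, VSR5 and VSR6 of the same lists lay outside the pericentromere.

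Gaps between domains numbered 195, with a median of 4076 bp. The 12 gaps of at least 20 kb summed to 461786 bp, which was 14.4% of the pericentromere and 28.8% of the bases outside peaks. They held 82 of the 248 protein-coding genes (33.1%), 5 of the 443 pseudogenes (1.13%) and 6 of the 56 transcribed pseudogenes (10.7%). No tandem repeat array lay in them, and 96.5% of their 50-mers were unique.

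The longest gap, chr2:6625794-6700000, was 74207 bp long as cut at the border, and the next peak began 763 bp past the border. It held 15 protein-coding genes, among them TIC21 of chloroplast protein import, the small GTPase ARFB1A, FUT10 and FUT5. The next, chr2:6352695-6422430 with 69736 bp, held 16 protein-coding genes with NPY2 of auxin-mediated organogenesis, AGP9 and the sulfotransferase ST4A. AGP9 was 46711 bp from the nearest peak upstream and 21282 bp downstream, so more than 20 kb of sequence without a peak lay on either side of it. The third, chr2:5905523-5960348 with 54826 bp, held 9 genes with MCM9, the cytochrome P450 CYP705A13 and DRP3B, and 99.8% of its 50-mers were unique. The fourth, chr2:5668596-5709910 with 41315 bp, had 69.0% of its bases in protein-coding genes, among them the RNA-editing protein SLO2, the transporters ABCG5, CHX15 and GONST1, and CALS5. The fifth, chr2:5741087-5779494 with 38408 bp, held 4 genes, SERK4, SERK5, ALD1 and the arabinogalactan-type XYP2, and no pseudogene. Of these 5 gaps the first and the second each held 1 pseudogene and 1 transcribed pseudogene, and the third held 1 transcribed pseudogene.

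Coverage fell from the left border to the right. In 4 stretches of 800 kb, 69.4%, 56.5%, 48.9% and 24.4% of the bases were inside peaks. The share of protein-coding genes that overlapped went from 21 of 33 (63.6%) through 20 of 51 (39.2%) and 13 of 61 (21.3%) to 9 of 103 (8.74%). The share of pseudogenes moved far less, with 122 of 138 (88.4%), 113 of 129 (87.6%), 97 of 110 (88.2%) and 54 of 66 (81.8%). The median fold of the peaks was 2.68, 2.37, 2.53 and 2.69 in the same order, and did not follow the fall in coverage. By 100 kb bins, coverage ranged from 91.8% in the fourth bin to 8.92% in the last. Over the 32 bins its Spearman correlation was 0.83 with the share of bases in pseudogenes and −0.81 with the share in protein-coding genes. It was 0.89 with GC content and −0.52 with the share of unique 50-mers. Neighbouring bins share domains, and all bins come from the same library, so the values are a description.

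**Figure D4:**
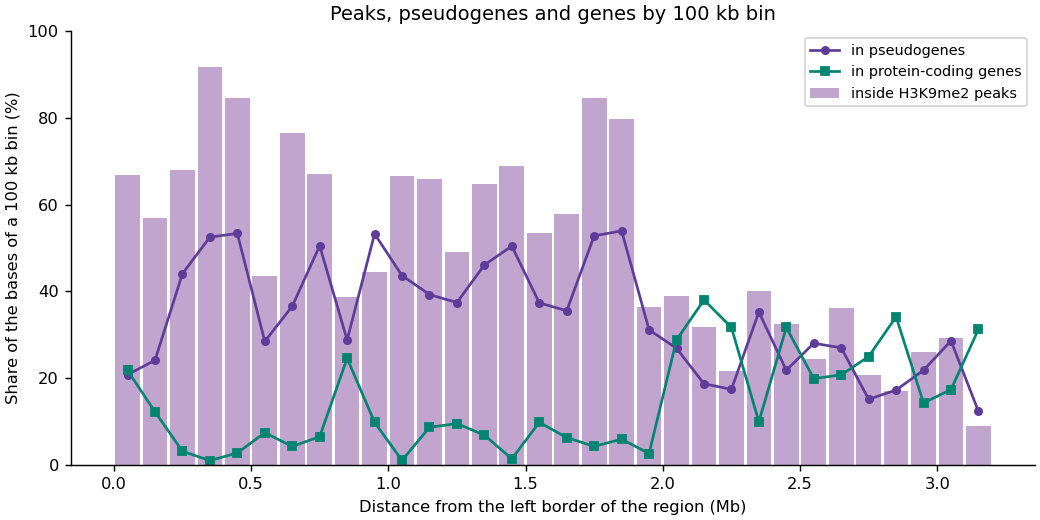
Bars give the share (%) of the bases of each 100 kb bin inside peaks, by distance from the left border in Mb; lines give the share in pseudogenes (circles) and in protein-coding genes (squares). Coverage was 91.8% in the fourth bin and 8.92% in the last, and the gene line rises above the pseudogene line in the right part.

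Base composition differed inside and outside peaks. GC content was 41.1% inside and 32.2% outside, and CHG cytosines numbered 6.23 and 3.70 per 100 bases. The difference of 2.53 per 100 bases was 3.12 outside protein-coding genes (6.26 against 3.14) and 2.52 in bases whose 50-mer is unique. Inside protein-coding genes the densities were 5.57 in the covered and 5.50 in the uncovered part, a difference of a smaller size. Of the covered gene bases 15.3% lay in tandem repeat arrays, which are poor in CHG sites, and of the uncovered 0%. Without the arrays, a choice made after seeing the data, the densities were 6.29 and 5.50. CG cytosines numbered 5.55 inside peaks and 4.03 outside, and CHH cytosines 29.4 and 24.5. Long gaps had 4.11 CHG cytosines per 100 bases, and the shorter gaps 3.54. No DNA methylation was measured in this library, so these are densities of sites and not of methylated cytosines.

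**Figure D5:**
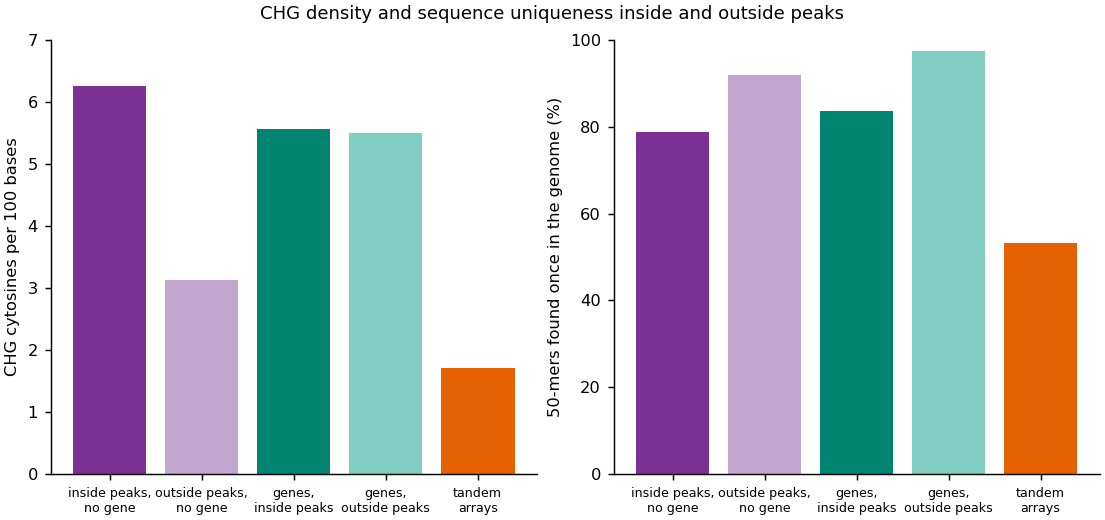
Left: CHG cytosines per 100 bases in 5 classes of sequence of the chromosome 2 pericentromere. Right: share (%) of 50-mers found once in the genome in the same classes. Outside protein-coding genes CHG density was 6.26 inside peaks and 3.14 outside, and tandem arrays had 1.72 with 53.2% unique 50-mers.

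Counted by matches elsewhere in the genome, peaks held more repeated sequence than the rest. Soft-masked bases, written in lower case in the reference, went the other way, with 24.75% inside peaks and 31.02% outside. Of the 50-mers, the length of the reads, 79.0% were unique inside peaks and 93.3% outside. Windows of 300 bp taken every 1 kb had at least 1 further match in the nuclear genome in 79.5% of cases wholly inside peaks (n = 1466), and in 36.8% wholly outside (n = 1489). The median numbers of further matches were 7.5 and 0. With unique bases alone the share inside peaks was 45.7%. At the summits the median number of matches was 3.5, 3, 3 and 6.5 in groups of 121 or 122 peaks from the lowest fold to the highest, so the groups below the highest showed no trend.

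Tandem repeat arrays were described apart from the other sequence. Arrays in which a 20-mer recurs 150 to 200 bp away were found at 7 places, all between bases 3605733 and 3716743, with 49214 bp in all and 48.8% inside peaks. Among the distances searched, the most frequent was 178 bp in 4 arrays, the length known for the centromeric satellite of this species, and 194 bp in the other 3. A period shorter than 150 bp could appear only as a multiple of itself. A repeat unit of each kind is shown, on the plus strand of TAIR10.1 with CAG, CTG, CCG and CGG in capitals.
Unit of the 178 bp kind, inside a peak, chr2:3619169-3619346: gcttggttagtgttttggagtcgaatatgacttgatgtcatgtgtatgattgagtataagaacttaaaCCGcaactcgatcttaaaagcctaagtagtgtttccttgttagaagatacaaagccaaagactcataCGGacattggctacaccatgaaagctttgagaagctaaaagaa
Unit of the 194 bp kind, outside peaks, chr2:3697452-3697645: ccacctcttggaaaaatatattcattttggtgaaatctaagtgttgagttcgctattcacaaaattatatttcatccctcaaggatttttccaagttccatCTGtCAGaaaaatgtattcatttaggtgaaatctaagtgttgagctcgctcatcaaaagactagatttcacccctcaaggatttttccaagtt
Each unit held 2 such sites. The printed 194 bp unit holds the stretch tgaaatctaagtgttgag 2 times, so 194 bp is not the shortest period of that array. The units matched the next unit of their array at 96.1% and 91.2% of positions. Arrays of the 178 bp kind were inside peaks over 68.6% of their 34380 bp, while the array of 9064 bp that holds the second unit and another of 2759 bp had no base inside a peak. The longest array, chr2:3612320-3636303, had 13201 of 23984 bp inside peaks. The peak that lies in it had a fold of 1.73, under the lower quartile of the members, and a second peak that reaches it had 6.12. CHG cytosines numbered 1.72 per 100 bases over all arrays. AT2G08986, the protein-coding gene with the most covered bases (8403 bp, covered whole), and AT2G07981 lie in that array, both annotated as uncharacterized proteins, and 32.8% of the 50-mers of AT2G08986 were unique. The reference has a run of 1000 unknown bases at 3607930 to 3608929, between the first arrays, and how much of the array is missing from it was not tested.

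Set beside the other 4 pericentromeres, found by the same rule on gene density, that of chromosome 2 had the lowest share inside peaks when all bases were counted. The shares were 54.3% on chromosome 1, 49.8% on chromosome 2, 54.4% on chromosome 3, 69.0% on chromosome 4 and 54.9% on chromosome 5. Its share of bases in protein-coding genes was 14.1%, against 7.85 to 12.5% in the others. Median folds were alike, with 2.53 on chromosome 2 and 2.54 to 2.64 elsewhere. Its widest peak, 48437 bp, was narrower than the widest of the others (64862 to 199140 bp). The share of protein-coding genes that overlapped, 25.4%, lay within the range of the others (18.5 to 30.8%). The 87.1% for pseudogenes was below the others (88.7 to 95.2%), but its interval reached 89.9%. Of its 50-mers 86.2% were unique, against 71.3 to 84.4%. Among unique 50-mers alone, chromosome 1 had the lowest share inside peaks with 44.4%. Chromosome 2 had 45.7% by that measure, and the rest had 49.4 to 64.65%. With 1 library and 5 pericentromeres these differences were not tested.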

How the data were processed

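ChIP-seq for H3K9me2 was done on 1 sample of flower buds, sequenced as single 50 bp reads. The authors deposited its peaks. Their deposited values are a fold enrichment ratio, −log10 p-values and −log10 q-values, and a score, which is the −log10 q-value times 10. The submitters' processing notes name Bowtie 1.1.2, SAMtools, MACS2 2.1.1 and TAIR10; the control, the thresholds and the placement of reads with several matches are not given in the sources used here. Depth is unknown. All peaks ended inside the chromosomes of TAIR10.1, whose sequence and RefSeq annotation were used.

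Overlaps, domains, gaps, site densities and 50-mer uniqueness were computed with Python 3.11.15 and NumPy 2.4.6, and checked on simulated data. The mitochondrial insertion was placed with minimap2 2.31, and further matches were found with BLAST+ 2.17.0. Pericentromeres were the longest run of 100 kb bins with protein-coding share, averaged over 5 bins, under 50% of the chromosome median. Intervals are Wilson 95%. Named loci were the 5 widest domains, the 5 highest peaks, the 5 longest gaps with their genes with symbols, the extremes of coverage, any gene with a symbol covered over at least 50%, and gene lists. The further spared or partly covered genes and the 3 genes of the insertion were named after their values were seen. Members and lists were chosen with earlier results of these data known. The annotation has no transposon class, so descriptions were searched instead. DNA methylation was not analysed here. Alternatives changed the peak threshold, widths, borders, overlap, joining and gap size.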

Additional observations from a re-analysis of the deposited data

How the results depend on the processing

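The list rests on 1 library, so replicate error, peak thresholds and the placement of reads in repeats limit every value. No paired analysis was possible because 1 sample had a file and no result came from a test. Raising the q threshold to a −log10 of at least 2 kept 484 of the 487 peaks. It left the share inside peaks at 49.8%, the share in long gaps at 14.4% and the median fold at 2.54 (main 2.53). The overlapping genes and pseudogenes were 63 and 385. Domains and site densities were not recomputed under it. With peaks at or above the median fold of the whole list, 2.60, the share of bases inside peaks was 43.8%, the median fold 3.83, the protein-coding genes overlapping 41 (main 63) and the pseudogenes 335 (main 386). With peaks of at least 500 bp the share was 48.2% and the median fold 3.09. The share was 50.6% with the borders 100 kb inwards, 50.8% with them outwards, 45.7% in unique bases and, chosen after seeing the data, 49.5% without the insertion peak. Whole-locus overlap left 27 protein-coding genes. Domains numbered 488 unjoined and 87 joined over 5 kb. Gaps of at least 10 kb held 29.8% of the bases. The difference in CHG density, an alternative also added after seeing the data, was 3.12 per 100 bases outside protein-coding genes. The remaining 17 of 31 alternatives moved no value beyond its interval, or a count by more than 1.5 times. For shares of bases and site densities that interval takes each base as independent, which the bases of a peak are not. It is therefore too narrow, and the split of the alternatives is a convention and no measure of error.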

Other observations

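Small RNA genes of the chromosome 2 pericentromere fell on both sides of the peaks. Of the microRNA genes that overlapped, MIR855 and MIR8175 were covered over their whole length with folds of 5.00 and 5.69, and MIR5646 was covered over 72.9% with a fold of 4.01. MIR396a, a regulator of GROWTH-REGULATING FACTOR genes, lay 3964 bp from the nearest peak, and MIR5020c and MIR8168 were spared as well. Of 2 small nucleolar RNA genes AT2G05525 was covered whole with a fold of 5.24, and AT2G05565 was spared. MIR5646 lies within ABCC13.

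A row of 6 transcribed pseudogenes of the methyl-binding protein gene MBD3, each 185 to 208 bp long, stood between bases 6486431 and 6489077. One narrow peak with a fold of 1.68 covered 95.7% of AT2G15014, and the other 5 had no covered base. These loci were picked after their descriptions were read.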
